A study of Rattus norvegicus with 90 samples.

Results

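The 300 liver-restricted genomic intervals described here were taken from 25095 stretches of the rat genome (build Rnor_6.0) that the study counted beside the annotated transcripts and listed by position in place of a transcript identifier. The 300 were selected on measured levels. Each interval was scored in vehicle-treated rats by its mean level in liver against the larger of its means in kidney and heart, as log2((liver + 0.5)/(larger of kidney and heart + 0.5)), and the 300 highest scores were kept. Levels are estimated counts on a counts-per-million scale (CPM), taken over the library's counts on annotated transcripts, and the 200 intervals with the largest summed counts over the whole series were left out before ranking, so that 24895 intervals were ranked. The scores use the values of 9 liver, 10 kidney and 10 heart vehicle libraries, and the organ differences among those libraries are given as a description without a test.

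RNA was measured by poly-A-enriched RNA-seq in liver, kidney, and heart of male Sprague-Dawley rats, obtained at 10 weeks of age, after a single intraperitoneal injection. Rats were given saline vehicle (3 ml/kg), a low dose of thioacetamide (25 mg/kg) or a high dose (100 mg/kg), and organs were collected 8 h or 24 h after exposure, which gave 18 groups of 5 libraries. All rats carried a jugular vein catheter. Those of the 8-h groups were injected in the morning and had no food over the 8 h. Those of the 24-h groups were injected in the late afternoon and had food removed for the last 8 h. Time after exposure therefore cannot be told apart from the hour of dosing and the feeding after it. Whole kidneys and hearts were powdered, so each library is a mixture of the organ's cell types, and lower RNA per cell and fewer cells of a type cannot be told apart in any result below.

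Thioacetamide is a hepatotoxicant that liver enzymes, cytochromes P450 among them, convert to reactive oxides. RNA read outside annotated transcripts can come from unannotated genes, from introns of unspliced precursor RNA, from transcription past the annotated end of a gene, or from genomic DNA in the library. The files do not pair the intervals with genes and no Rnor_6.0 annotation was used here, so intervals are named by position only, which of these sources applies to an interval is not known, and lists of cell type markers could not be applied.

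Total estimated counts were 16332800 to 36303200 per library (median 24842150), and the 300 intervals held 32476 to 102456 counts of a liver library (median 69146). All intervals together took 4.08% to 28.9% of a library's counts. At least 1 liver library went against its label, since 2 of them could not be told apart. MS-1, labelled vehicle at 24 h, and MS-9, labelled low dose at 8 h, held counts within 1 of each other in 276 of 276 member intervals with at least 10 counts, whereas among the other 434 pairs of liver libraries the highest such share was 6.27%. Which of these labels is right is not known, so the low-dose values at 8 h carry the same doubt. MS-1 was left out of the score and of every comparison below unless stated, and MS-9 was kept. Low-dose counts and sums at 8 h are also given without MS-9, and no call of a single interval given below for 8 h was lost without it apart from the low-dose interaction.

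In vehicle liver the 300 intervals had mean levels of 0.974 to 131 CPM, with a median of 6.32 CPM. Their median level was 0.360 CPM in kidney (highest 8.93 CPM) and 0.195 CPM in heart (highest 12.3 CPM). Scores ran from 1.45 to 7.57 with a median of 2.36. The lowest is a 2.73-fold ratio after the constant in the score is added to both levels, not a ratio of the levels themselves. A low score can come from a low liver level, as in chr1:81741846-81750427 with 1.02 CPM in liver, 0.0562 CPM in kidney and 0.0183 CPM in heart. It can also come with signal elsewhere, as in chr10:70826149-70846148 (score 2.14) with 24.1 CPM in liver and 5.08 CPM in kidney. By their levels, the label "restricted" covers intervals near silence in kidney and heart as well as intervals with clear signal there. A score of at least 4, a 16-fold ratio with the constant added, was reached by 48 intervals. Kidney was the second organ for 233 of the 300 and heart for 67, and 82 exceeded 1 CPM in kidney against 41 in heart. The vehicle values of liver did not overlap those of either other organ in 261 of the 300, against 0.411% of the other ranked intervals, which follows from how the 300 were chosen.

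**Figure D1:**
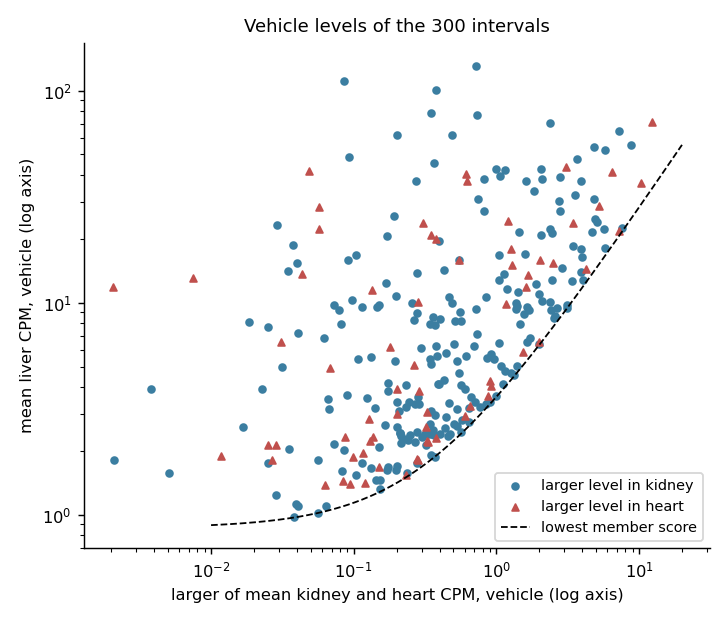
Mean level of each of the 300 intervals in vehicle liver (vertical axis, CPM, log scale) against the larger of its means in vehicle kidney and heart (horizontal axis, CPM, log scale); the dashed line marks the lowest score kept. All 300 points lie on or above the line by construction, and liver levels run from 0.974 to 131 CPM.

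The interval with the highest score was chr17:72196011-72198366, a short interval of 2356 bases. It had 110.5 CPM ± 19.7 (SD, n = 9) in vehicle liver, 0.0852 CPM in kidney and 0.0351 CPM in heart. Per kb of interval this was 46.9 CPM, the highest of the 300, whose median was 0.497 CPM per kb. The next 4 by score were chr11:80803884-80823489, chr14:22030667-22050666, chr4:65082716-65102715 and chr1:147199599-147219598, with scores of 6.84, 6.76, 6.54 and 6.47. Their mean levels in vehicle liver were 100.3, 131, 78.5 and 61.5 CPM, and each was under 1 CPM in kidney and heart. The other interval among the 5 highest liver levels was chr7:14419452-14429201, at 76.8 CPM ± 27.8 (SD, n = 9) in liver and 0.730 CPM in kidney.

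Signal was concentrated in a few intervals. The 300 summed to 3937 CPM in vehicle liver, 17.8% of the 22082 CPM held there by all ranked intervals, and 39 of them held 50% of that sum. The 50 highest held 57.2%. The spread between vehicle livers was wide, with a median coefficient of variation of 39.8% per interval. At the edge of the list, the last 2 intervals kept were chr1:81741846-81750427 and chr3:159970035-159990034, both with a score of 1.45. The next 2 by score, chr13:107427830-107433087 and chr10:88968250-88978883, lay just outside at 1.45 and 1.44.

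The intervals were 1315 to 20000 bases long with a median of 19994.5 bases, and 150 (50%) had the longest length of 20000 bases, against 55.5% of all intervals. Chromosome 8 held 30 of them, 10% against 5.55% of all intervals, and chromosome X held 2, 0.667% against 4.69%. Of the 300 intervals with the highest score for kidney by the same rule, 5.67% were on chromosome 8, and of the corresponding heart intervals 6.67%. With a gap of at most 50 kb between neighbours, 56 of the 300 fell into 25 runs and 244 stood alone. The kidney and heart lists had 69 intervals in 31 runs and 27 in 13 runs. Neighbouring intervals may share a transcript and are not independent of each other; no test was made of these shares.

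The organ difference was next read in the treated libraries, which the rule did not use. The design had 30 rats, so libraries of different organs can come from one rat, but the labels do not tie libraries to a rat and organs were compared as unpaired. The mean treated level was higher in liver than in kidney in all but 1 of the 300 intervals, and likewise higher than in heart in all but 1. Over the 20 treated livers and 20 treated kidneys, 292 of the 298 intervals that passed the filter on low counts were called higher in liver by edgeR's quasi-likelihood test (adjusted p of at most 0.01 and at least 1.82-fold), against 16.1% of all targets tested. In the comparison with heart 292 of 298 were also called higher in liver, against 25.2% of all targets. An interval low in kidney and heart passes the filter only through its liver level, so these 2 counts are a description and are not read as support. All 20 treated livers lay above all 20 treated kidneys in 135 of the 300 intervals, against 0.167% of the other ranked intervals, and above all treated hearts in 188, against 1.44%. Recomputed on treated means, the score had a median of 1.71 among the 300 and −0.29 among the other ranked intervals, and 221 of the 300 were again among the 300 highest. It fell below 1 for 51 intervals and below 0 for 2, the lowest being chr2:32718347-32738346 at −0.06.

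The summed level of the 300 intervals was lower in every treated liver than in any vehicle liver of its time, MS-1 apart. Vehicle livers took part in choosing the intervals, so their sums are favoured to be high, and no test was made of this difference. At 8 h it ran from 3320 to 4318 CPM in vehicle (median 3932), from 2278 to 3043 CPM at the low dose (median 2807) and from 2105 to 2419 CPM at the high dose (median 2197). At 24 h the ranges were 3873 to 4197 CPM in vehicle without MS-1 (median 4039), 2520 to 3160 CPM at the low dose (median 2677) and 1567 to 2286 CPM at the high dose (median 2006). MS-1 itself had 2278 CPM, as MS-9 did, and without MS-9 the low dose at 8 h ran from 2670 to 3043 CPM (median 2827). The summed group means of the other ranked intervals, without the largest intervals left out before ranking, were 18009, 22259 and 21508 CPM at 8 h in vehicle, low and high dose. At 24 h they were 18316, 20451 and 26429 CPM in the same order. The share of a library's counts on all intervals varied within groups, from 4.08% to 23.6% in vehicle and from 4.45% to 28.9% at the high dose at 8 h, and its part in single intervals' results was examined by adding it to the fit as a covariate. In kidney the group means of the summed level were 247 to 313 CPM and in heart 164 to 204 CPM.

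**Figure D2:**
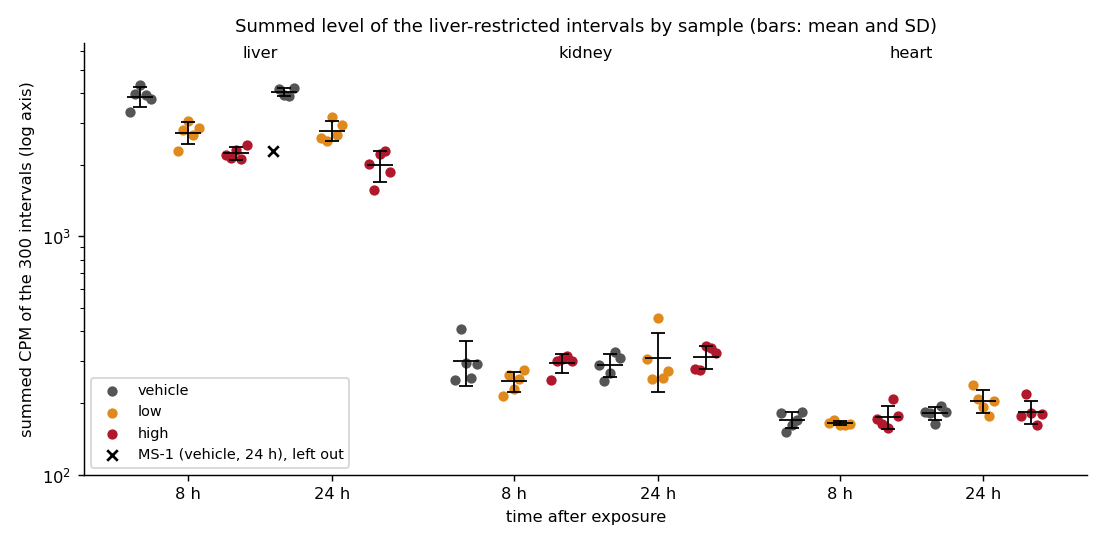
Summed level of the 300 intervals (vertical axis, CPM, log scale) in every library of the 18 groups, with the group mean and SD; the cross is MS-1, left out of its mean. Liver groups lie above kidney and heart groups, and treated livers lie below the vehicle livers of the same time.

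For single intervals the levels printed are CPM without further scaling, while fitted log2 changes also use TMM factors computed on the transcripts. These factors differed between treated and vehicle livers by a mean log2 of 0.34 and 0.53 at the low dose and 0.16 and 0.86 at the high dose (8 h and 24 h), so fitted changes lie below the ratio of the printed CPM by about these amounts. Called means an adjusted p of at most 0.01 and a change of at least 1.82-fold. Because vehicle livers took part in choosing the intervals, their vehicle values are favoured to be high, and the counts against vehicle are to be read with that limit.

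At the low dose, all but 1 of the 300 intervals could be tested at 8 h, and 83 fell and 3 rose, against a background of 3.99% of all targets and 2.85% of the other intervals called lower and 4.85% of all targets called higher. The median log2 change was −0.88 among the members tested and 0.02 among the other intervals. Without MS-9, 76 were called and 73 of them fell, with a median of −0.79. At 24 h, 117 of 298 fell and none rose, against 4.92% of all targets and 5.28% of the other intervals called lower and 3.72% of all targets called higher, with medians of −1.08 and −0.36. With MS-1 kept among the vehicle livers only 10 were called at 24 h. The share of a library's counts on all intervals did not overlap at 24 h between vehicle (7.64% to 25.0%) and low dose (5.10% to 7.02%), and 43 were called with this share as a covariate. With library size alone and no TMM factors the calls were 58 lower and 7 higher at 8 h and 58 lower and 5 higher at 24 h, and the medians were −0.54 and −0.55, while the medians of all targets were 0.33 and 0.44.

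At the high dose, 162 of 298 fell and 8 rose at 8 h, against 8.48% of all targets and 8.04% of the other intervals called lower and 12.3% of all targets called higher. The medians were −1.44 among the members tested and 0.10 among the other intervals. At 24 h, 218 of 293 fell and 5 rose, against 14.4% of all targets and 13.5% of the other intervals called lower and 11.2% of all targets called higher, with medians of −2.09 and −0.25. With MS-1 kept, 163 were called at 24 h. Library size alone gave 148 lower and 9 higher at 8 h and 145 lower and 11 higher at 24 h, with medians of −1.28 and −1.27 against 0.16 and 0.80 for all targets. The 2 doses at one time share their vehicle livers, and their counts are given side by side only.

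**Figure D3:**
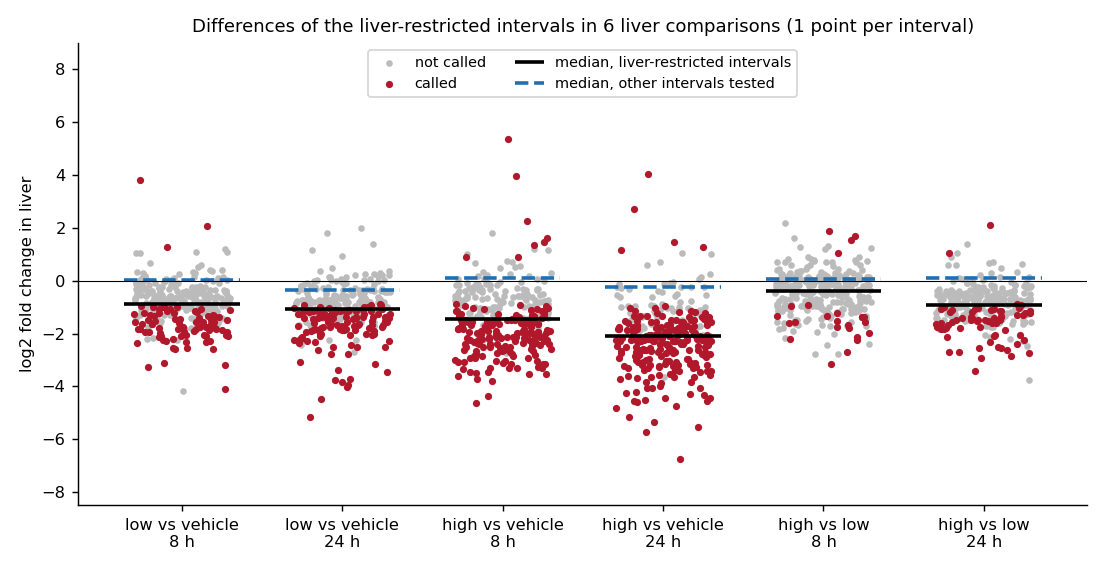
Fitted log2 change of each interval that passed the filter (points; called intervals in red) in 6 liver comparisons, with the medians of these intervals and of all other intervals. The members' medians run from −0.41 for high against low dose at 8 h to −2.09 for high dose against vehicle at 24 h.

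The interval chr5:78009220-78029219 (rank 33 by score) was called lower in all 4 comparisons with vehicle, and was among the largest falls at each time. In vehicle livers at 8 h it had 33.4, 44.0, 62.6, 76.4 and 136 CPM, against 3.58 to 16.1 CPM at the low dose and 2.32 to 11.2 CPM at the high dose. At 24 h vehicle livers had 41.4, 66.2, 74.8 and 99.1 CPM, the low dose 2.02 to 9.13 CPM and the high dose 1.55 to 3.76 CPM. Treated and vehicle livers did not overlap at either time. The fitted log2 changes were −3.11 ± 0.43 (SE; adjusted p 0.000447) and −4.49 ± 0.48 (adjusted p 0.000203) at the low dose, and −3.59 ± 0.45 (adjusted p 8.55e-05) and −5.71 ± 0.31 (adjusted p 2.78e-06) at the high dose. The last is a 52.3-fold decrease.

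Another interval, chr3:92670979-92690978 (rank 32), fell further at the low dose. Its vehicle levels were 10.6 to 34.6 CPM at 8 h and 12.1 to 24.5 CPM at 24 h. At the low dose it had 1.12 to 2.56 CPM at 8 h and 0.365 to 1.15 CPM at 24 h, and at the high dose 2.18 to 6.15 CPM and 0.179 to 1.46 CPM. All treated livers were again below all vehicle livers, with low-dose changes of −4.08 ± 0.33 at 8 h (adjusted p 3.35e-05) and −5.14 ± 0.31 at 24 h (adjusted p 2.95e-05). At 8 h the high-dose level stood above the low-dose level by 1.30 ± 0.33 on the log2 scale, which missed the threshold (adjusted p 0.0283).

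The largest fitted fall was in chr2:196583499-196586706 (rank 79), an interval of 3208 bases. Vehicle livers at 24 h had 6.24, 6.97, 8.17 and 16.3 CPM and low-dose livers 0.524 to 1.39 CPM. The high-dose livers had 0, 0.104, 0.193, 0.200 and 0.234 CPM, where the library at 0 allows up to 0.147 CPM (3 counts, counting error only). The changes at 24 h were −4.04 ± 0.36 at the low dose (adjusted p 9.05e-05) and −6.76 ± 0.45 at the high dose (adjusted p 4.88e-06). At 8 h they were smaller, −1.76 ± 0.30 (adjusted p 0.00134) and −1.60 ± 0.42 (adjusted p 0.00957). Its neighbour chr2:196568642-196581775 (rank 127) changed by −4.22 at the high dose at 24 h.

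Among other large falls, chr9:65501704-65521703 (rank 100) changed by −3.20 ± 0.36 at the low dose at 8 h (adjusted p 0.000131) and by −4.56 at the high dose at 24 h. At the high dose at 8 h chr13:44375213-44395212 (rank 97) fell from 12.02 to 23.5 CPM in vehicle livers to 0.473 to 0.954 CPM, a log2 change of −4.65 ± 0.24 (adjusted p 5.78e-07). The low-dose livers lay between them at 1.37 to 8.31 CPM. One of the 2 intervals on chromosome X, chrX:110192555-110212554 (rank 118), changed by −4.35 ± 0.46 at the high dose at 8 h (adjusted p 3.08e-05).

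The intervals with the highest scores were called in different comparisons. The top interval, chr17:72196011-72198366, had 84.8 to 138 CPM in vehicle, 102.2 to 111.9 CPM at the low dose and 88.3 to 103.4 CPM at the high dose at 8 h. At 24 h it had 99.3 to 137 CPM in vehicle, 86.2 to 123 CPM at the low dose and 69.8 to 99.1 CPM at the high dose. Among the 4 comparisons with vehicle it was called only at the high dose at 24 h, at −1.23 ± 0.17 (adjusted p 0.000207), and its high-dose values at 8 h overlapped the vehicle values. With library size alone that change was −0.39 (adjusted p 0.0309) and not called, so the call rests on the TMM factors. By contrast chr14:22030667-22050666 was called lower in all 4. It had 96.5 to 176 CPM in vehicle, 39.9 to 65.3 CPM at the low dose and 17.99 to 34.98 CPM at the high dose at 8 h, with changes of −1.78 and −2.65. At 24 h it had 107 to 141, 21.5 to 53.5 and 23.6 to 29.3 CPM, with changes of −2.27 and −3.03.

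In chr4:65082716-65102715 vehicle livers at 8 h already ranged from 17.3 to 132 CPM, and low-dose livers at 24 h from 5.19 to 149 CPM. Only the high dose was called there, at −2.79 (adjusted p 0.00564) at 8 h and −5.15 ± 0.52 (adjusted p 3.05e-05) at 24 h. For chr11:80803884-80823489 the low dose at 8 h (−1.01, adjusted p 0.000555) and the high dose at 24 h (−1.70, adjusted p 0.00225) were called, and both calls were lost with library size alone (−0.68 and −0.88). The interval chr1:147199599-147219598 was called only at the high dose at 8 h (−1.44, adjusted p 0.00298), its change at 24 h being −0.53 (adjusted p 0.323). For chr7:14419452-14429201 both doses were called at 24 h, at −0.99 (adjusted p 0.00171) and −1.81 (adjusted p 4.48e-05). The low-dose call there was lost with library size alone (−0.47), with MS-1 kept (−0.79) and with each library's interval share as a covariate (−1.11, adjusted p 0.0102).

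**Figure D4:**
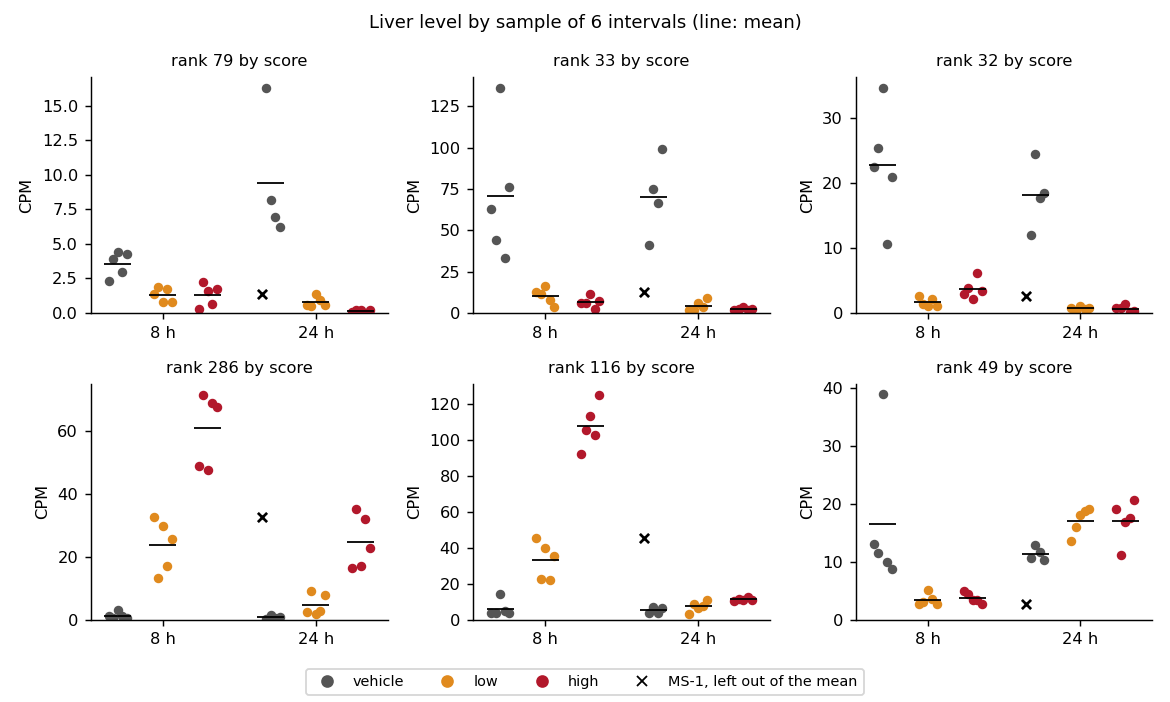
Level in every liver library (vertical axis, CPM, linear scale) of 6 intervals, ranks 79, 33, 32, 286, 116 and 49 by score, in the 6 liver groups, with group means; the cross is MS-1, left out of the mean. Ranks 79, 33 and 32 lie lower in all treated groups, ranks 286 and 116 lie higher at 8 h, and rank 49 lies lower at the low dose at 8 h but not at 24 h.

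Over the 4 comparisons with vehicle, 245 of the 300 intervals were called lower at least once, 54 of them in all 4, 52 in 3, 69 in 2 and 70 in 1. Of the 8356 other intervals tested in any of the 4, 15.1% were called lower at least once and 0.886% in all 4. Rises were called for 11 intervals and no call was made for 45, given without a share of the other intervals. In the 4 single comparisons 3.72% to 12.3% of all targets were called higher. At the low dose 57 of the 300 intervals were called lower at both times, 68.7% of those called lower at 8 h and 48.7% of those at 24 h. Of the 8356 other intervals 85 (1.02%) were called lower at both times, where 196 were called lower at 8 h and 366 at 24 h. At the high dose 137 of the 300 were called lower at both times, 84.6% of those called lower at 8 h and 62.8% of those at 24 h. Of the 8356 other intervals 365 (4.37%) were, where 560 were called lower at 8 h and 1004 at 24 h. One interval, chr1:263530381-263550380, was called in opposite directions at the high dose, at 1.36 at 8 h and −2.21 at 24 h, the latter not called with library size alone (−1.37, adjusted p 0.0117).

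Annotated transcripts whose scores, computed in the same way, lay in the members' range give a scale for these counts. Of 768 such transcripts, 153 of 759 tested were called lower at the low dose at 8 h (20.2%) and 203 of 761 at 24 h (26.7%). At the high dose 181 of 757 were called lower at 8 h (23.9%) and 478 of 755 at 24 h (63.3%). Their medians were −0.62, −0.69, −0.54 and −1.47, where the intervals had −0.88, −1.08, −1.44 and −2.09 in the same order. These transcripts carry the same limit on vehicle values, and the difference between the sets was not tested.

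The 2 doses were compared directly within each time, in livers that took no part in the score. At 8 h, 21 of 293 intervals were lower at the high than at the low dose and 4 were higher, against 0.681% of all targets called lower and 1.74% called higher, with a median of −0.41 where the other intervals had 0.07. At 24 h, 66 of 290 were lower and 2 higher, against 3.34% and 2.81% of all targets, with medians of −0.91 and 0.10. With library size alone the calls were 37 lower and 3 higher at 8 h and 44 lower and 4 higher at 24 h, with medians of −0.56 and −0.63 against −0.14 and 0.34 for all targets. DESeq2 called 67 at 8 h and 121 at 24 h, given without a share of all targets. The count at 8 h rested on single libraries, ranging from 5 to 30 as each was left out. Leaving out any one of MS-11, MS-12, MS-14, MS-15, MS-17, MS-18 and MS-27 gave 5, 6, 15, 7, 11, 7 and 6. At 24 h it ranged from 29 to 79, and was 41, 32, 32, 29, 35, 41 and 31 without MS-2, MS-3, MS-6, MS-7, MS-22, MS-23 and MS-26. Of the transcripts with scores in the members' range, 20 of 751 (2.66%) were called lower and 11 higher at 8 h, with a median of 0.06. At 24 h 193 of 745 (25.9%) were called lower and 5 higher, with a median of −0.75. Falls between doses at 24 h are therefore not read as particular to the intervals.

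The median difference between doses was larger towards the top of the list. From the 100 highest ranks to the 100 lowest it was −0.65, −0.45 and −0.23 at 8 h, and at 24 h it was −1.07 in the former and −0.71 in the latter, given without a test. Intervals of 20000 bases had a median of −0.66 at 8 h against −0.22 for shorter ones, while at 24 h the values were −0.95 and −0.88.

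Among single intervals at 8 h, chr13:44375213-44395212 differed between doses by −2.71 ± 0.43 (adjusted p 0.00402) and chr1:75979651-75999650 (rank 45) by −2.24 ± 0.39 (adjusted p 0.0055). The first lost its call without MS-11, MS-12, MS-15, MS-17, MS-18 or MS-27 (adjusted p 0.0101 to 0.0152), and the second without any of these or MS-14 or MS-94 (adjusted p 0.0114 to 0.0187). In chr4:177984913-178004912 (rank 113) the low-dose livers had 3.502 to 9.59 CPM, overlapping the vehicle livers at 3.43 to 7.26 CPM, whereas the high-dose livers had 1.10 to 1.78 CPM. Its difference between doses was −2.21 ± 0.28 (adjusted p 0.00172). At 24 h the same separation by dose was seen in chr7:94779197-94794713 (rank 71), with 14.3 to 28.6 CPM in vehicle, 10.6 to 21.6 CPM at the low dose and 1.57 to 3.46 CPM at the high dose, a difference of −2.94 ± 0.31 between doses (adjusted p 0.000828). In chr16:49167826-49185059 (rank 31) the low dose had 10.5 to 16.96 CPM and the high dose 0.376 to 4.81 CPM (−2.85 ± 0.45, adjusted p 0.00193), and in chr2:196583499-196586706 the difference was −2.71 ± 0.50 (adjusted p 0.00328). With each library's interval share as a covariate both calls were lost (−2.17, adjusted p 0.0175, and −1.91, adjusted p 0.0675). Among intervals called without overlap and with a mean of at least 1 CPM, the largest fitted difference was that of chr1:14513389-14527216 (rank 163). It was −3.43 ± 0.79 (adjusted p 0.00891) and stands on low counts, with vehicle livers at 24 h from 0 to 6.10 CPM. Its call was kept only when MS-5 was the library left out (adjusted p 0.0104 to 0.0272 without any other single treated liver of that time), and it was lost with the covariate (−4.03, adjusted p 0.0262).

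Whether the change itself differed between 8 h and 24 h was tested with an interaction term. The times also differed in the hour of dosing and in feeding, so a called difference cannot be assigned to elapsed time alone. At the high dose 41 of 300 intervals were called at an adjusted p of at most 0.01, 38 with a lower and 3 with a higher change at 24 h, against 4.05% and 2.88% of all targets. Of the transcripts with scores in the members' range, 187 of 765 (24.4%) had a lower and 8 a higher change at 24 h. Lower changes at 24 h are therefore not read as particular to the intervals. With library size alone 42 intervals were called, 24 lower and 18 higher, so the split of directions depended on the scaling. DESeq2 called 74 intervals, given without a share of all targets. The smallest adjusted p was that of chr10:64931241-64951240 (rank 42), which changed by −0.16 at 8 h and −3.26 at 24 h, an interaction of −3.01 ± 0.23 (adjusted p 6.81e-07). The interactions of chr2:196583499-196586706, chr7:94779197-94794713 and chr3:92670979-92690978 were −5.06 ± 0.66 (adjusted p 8.01e-05), −3.47 ± 0.56 (adjusted p 0.000424) and −2.68 ± 0.54 (adjusted p 0.0027), the last not called with MS-1 kept (−2.40, adjusted p 0.031). In chr7:94779197-94794713 the high dose differed from vehicle by −0.28 at 8 h (adjusted p 0.579) and by −3.85 at 24 h. The 3 upward interactions were in chr6:137133617-137153616 (2.23), chr16:7987587-8007586 (2.08; 2.34 and not called with MS-1 kept) and chr7:119631926-119646874 (1.11). In vehicle livers themselves 0 of 300 intervals were called between 24 h and 8 h by edgeR, against 0% of all targets. In that test 51 had an unadjusted p under 0.05, and DESeq2 called 2, both given without a share of all targets.

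**Figure D5:**
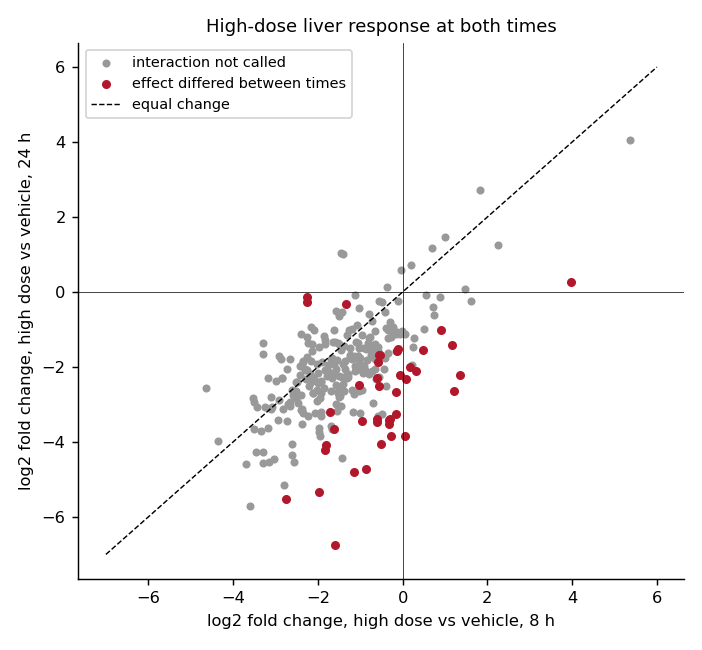
Fitted log2 change of the high dose against vehicle at 8 h (horizontal axis) and 24 h (vertical axis) for the 292 intervals tested at both times; the 41 intervals with a called interaction are marked. Most marked points lie below the diagonal, 38 of the 41 having the lower change at 24 h.

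At the low dose 1 of 300 intervals had a called interaction, against 0.615% of all targets, and 59 had an unadjusted p under 0.05, while DESeq2 called 11. The last 2 counts have no share of all targets beside them and are not read as particular to these intervals. The interval called by edgeR was chr16:7987587-8007586 (rank 49). At 8 h its vehicle livers had 8.69, 10.03, 11.5, 13.2 and 38.9 CPM and its low-dose livers 2.80 to 5.11 CPM, a change of −2.55 ± 0.40 (adjusted p 0.000937). At 24 h vehicle livers had 10.3 to 12.9 CPM and low-dose livers 13.5 to 19.1 CPM, a change of 0.05 ± 0.14 (adjusted p 0.82). The interaction was 2.61 ± 0.46 (adjusted p 0.00578), and the highest vehicle value at 8 h belonged to MS-16. Its call rested on single libraries. No interval was called without any one of MS-2, MS-4, MS-12, MS-18, MS-19, MS-20, MS-21, MS-22 and MS-23, with MS-1 kept the count was 0, and without MS-9 or MS-7 the 1 interval called had a lower change at 24 h and so was not this one. Leaving out MS-15, MS-16 or MS-29 gave 2, 2 and 3 intervals.

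A small group of intervals rose. The largest rise was in chr6:128084665-128092972 (rank 286), near the lower edge of the list. Vehicle livers at 8 h had 0.625, 0.702, 1.09, 1.14 and 3.12 CPM, low-dose livers 13.1, 17.1, 25.5, 29.6 and 32.5 CPM and high-dose livers 47.6, 48.6, 67.4, 68.9 and 71.2 CPM. The 3 groups did not overlap, and the changes from vehicle were 3.81 ± 0.43 (adjusted p 0.000146; 13.98-fold) at the low dose and 5.36 ± 0.40 (adjusted p 3.29e-06; 41.0-fold) at the high dose. At 24 h vehicle livers had 0.211 to 1.40 CPM and high-dose livers 16.4 to 35.3 CPM, a change of 4.04 ± 0.44 (adjusted p 4.9e-05) that was 1.36 and not called with MS-1 kept, while the low dose at 1.74 to 9.02 CPM missed the threshold (1.98 ± 0.62, adjusted p 0.0363). The difference between doses was 1.54 ± 0.23 at 8 h (adjusted p 0.00335) and 2.10 ± 0.44 at 24 h (adjusted p 0.00578). Those 2 calls were lost without MS-11, MS-18 or MS-27 at 8 h (adjusted p 0.0106 to 0.0127) and without MS-2, MS-6, MS-7, MS-22, MS-26 or MS-91 at 24 h (adjusted p 0.0104 to 0.0168), and the latter also with the covariate (1.98, adjusted p 0.0246).

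On the same chromosome chr6:127592418-127609743 (rank 116) was called higher at 8 h and not at 24 h. Its vehicle livers at 8 h had 3.65, 3.75, 4.01, 5.13 and 14.5 CPM, low-dose livers 22.1 to 45.5 CPM and high-dose livers 92.1, 102.5, 105.5, 113 and 125 CPM. The changes were 2.08 ± 0.40 (adjusted p 0.00252) and 3.96 ± 0.38 (adjusted p 1.6e-05). At 24 h vehicle livers had 3.54 to 6.97 CPM and high-dose livers 10.3 to 12.6 CPM, a fitted change of 0.27 ± 0.22 (adjusted p 0.355) even though the printed levels do not overlap, and with library size alone it was 1.12 and called (adjusted p 0.00102). The interaction was −3.61 ± 0.45 (adjusted p 5.1e-05). Its neighbour in the list, chr6:127632766-127646683 (rank 11), was not called at the high dose at 8 h (0.50) or at 24 h (−0.97, adjusted p 0.0183).

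The third interval called higher at the low dose at 8 h was chr19:56482283-56502282 (rank 241), at 1.27 ± 0.24 (adjusted p 0.00238), and at the high dose it changed by 1.61 ± 0.32 (adjusted p 0.00186). In chr2:182014264-182026614 (rank 68) the level rose at the high dose by 2.24 ± 0.36 at 8 h (adjusted p 0.000472) and 1.26 ± 0.16 at 24 h (adjusted p 0.000146), the latter 0.78 and not called with MS-1 kept. At 24 h chr5:64703394-64712943 (rank 259) rose by 2.73 and chr11:3069861-3089860 (rank 140) by 1.47 ± 0.27 (adjusted p 0.00125), the latter not called with the covariate (1.31, adjusted p 0.0104). The interval chr10:106976542-106991435 (rank 124) was higher at the high than at the low dose at 8 h by 1.71 ± 0.14 (adjusted p 0.000674). Its vehicle livers at 8 h had 2.22, 3.48, 3.83, 11.8 and 46.6 CPM, and against this wide spread the change at the high dose of 0.68 was not called (adjusted p 0.447).

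Of the 293 intervals tested at the high dose at 24 h, 281 had a fitted change below 0, and the median of the other intervals was −0.25. In 24 of the 25 runs every tested interval had a fitted change below 0 in that comparison, the exception being the pair on chromosome 6 described above. With nearly all members below 0, most runs would be so without any link between neighbours, so this count is not read as a trait of runs. The median spread between the largest and smallest change in a run was 0.924. The run chr5:77999996-78062588 held 4 intervals over 62593 bases with a summed vehicle level of 111.5 CPM, and its 3 tested intervals had fitted changes of −3.23, −5.71 and −4.44. The 3 intervals of chr10:70788810-70884030 had changes of −2.25, −3.12 and −2.92, those of chr8:130504505-130568704 had −2.65, −3.21 and −2.70, and those of chr8:41661739-41701349 had −2.16, −1.47 and −1.92. In chr12:10690557-10771658 the values were −1.86, not called, −3.08 and −2.77. The run with the widest spread, 4.08, paired chr1:147636785-147656784 at −0.51 (adjusted p 0.448) with chr1:147700723-147713398 at −4.59, and was picked out after its values were seen.

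In kidney and heart most of the 300 intervals were too low to test. For the high dose in kidney, 122 passed the filter at 8 h and 4 were called, 2 higher and 2 lower, against 1.89% of all targets, and 141 passed at 24 h with 6 called, 2 higher and 4 lower, against 3.89%. In heart edgeR called 0 of 76 at 8 h, against 0.0158%, and 0 of 85 at 24 h, against 0.7%. In these tests 7 and 9 had an unadjusted p under 0.05, and DESeq2 called 1 at 24 h, all given without a share of all targets. The kidney count at 8 h was 10 without MS-100, and that at 24 h was 2 without MS-33 and 3 without any one of MS-31, MS-36, MS-50, MS-51, MS-56 and MS-103; in heart at 24 h it was 2 without MS-84. With counts this small, the kidney calls are not read as particular to these intervals.

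The kidney calls were few and are named after their values were seen. In chr3:2720014-2724115 (rank 96) kidney levels at 8 h were 6.12 to 8.36 CPM in vehicle and 2.35 to 3.41 CPM at the high dose, a change of −1.22 ± 0.17 (adjusted p 0.00143), followed by −1.09 ± 0.19 at 24 h (adjusted p 0.00275). In liver the same interval had 44.8 to 74.5 CPM in vehicle, 13.2 to 33.1 CPM at the low dose and 4.10 to 6.56 CPM at the high dose at 8 h. The interval chr10:106976542-106991435 rose in kidney at both times, from 0.387 to 0.934 CPM in vehicle to 2.50 to 3.91 CPM at 8 h (2.15 ± 0.25, adjusted p 0.000471) and by 2.50 ± 0.35 at 24 h (adjusted p 0.000698). The other calls at 8 h were chr3:139854150-139874149 (−1.20) and chr3:176692772-176697804 (1.86). At 24 h chr14:19073178-19078179 fell from 2.61 to 7.79 CPM in vehicle to 0.337 to 1.17 CPM (−2.90 ± 0.39, adjusted p 0.000604), chr10:70826149-70846148 and chr11:72614677-72624949 changed by −1.55 and −1.20 (both lost with library size alone, at −1.43 and −1.09), and chr19:56482283-56502282, which also rose in liver at 8 h, changed by 1.63 ± 0.33 (adjusted p 0.00726). Whether an organ's change differed from that in liver was not tested.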

How the data were processed

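Per the labels, RNA from liver, kidney, and heart was sequenced as poly-A-enriched, stranded paired-end libraries. The authors pseudoaligned the reads with kallisto 0.42.2 to transcripts and genomic intervals of Rnor_6.0, and the deposited tables give estimated counts and TPM (scaled over all targets) for each target and library; TPM served only for an alternative ranking. No depth beyond these counts was used, and floors cover counting error only. Replicates are separate libraries, and p-values measure the spread between them.

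Counts were rounded to integers and fitted over all targets with edgeR 4.0.16 (R 4.3.3; quasi-likelihood test, default filter on low counts), with library sizes and TMM factors from the transcripts, Benjamini-Hochberg adjustment over all targets tested, and the study's limits (adjusted p of at most 0.01, natural-log fold change of at least 0.60; no limit of size for interactions). The SE printed beside a log2 change is the size of that change divided by the square root of the test's F statistic. It restates the test and is not a separate estimate of error. Sleuth, which the authors used, was not run here. The procedure was tested on simulated counts with the same spread for all targets and no shift in scaling between groups. That test does not cover the spread and the scaling differences of the real libraries. Alternatives were DESeq2 1.42.0, other scalings, no filter, no limit of size, single libraries left out, MS-1 kept in and, added after the data were seen, each library's interval share as a covariate and library size alone.

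Named intervals were the 5 highest by score and by vehicle level, up to 3 rises and 3 falls without overlap and with a mean of at least 1 CPM in each of 6 liver comparisons, the ranks beside the threshold and the longest runs; others are said to be named after their values were seen or belong to a called count. The intervals, lists and tests were chosen with earlier results of these data known.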

Additional observations from a re-analysis of the deposited data

Results flagged for a closer look

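In 68 groups of 4 or 5 libraries the summed level of the 300 intervals, or the level of a named interval, was examined for a single library far from the others by Dixon's criterion, and 6 groups held one, where chance gives about 1 in 20.

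MS-1, labelled vehicle liver at 24 h, had a summed level of 2278 CPM against 3873 to 4197 CPM in the other 4 livers of that label. In kidney, MS-100 (vehicle, 8 h) had 407.7 CPM against 249 to 295 CPM, and MS-38 (high dose, 8 h) had 248.7 CPM against 300 to 314 CPM. MS-37 (low dose, 24 h) had 453.1 CPM against 251 to 307 CPM, and in it the top interval chr17:72196011-72198366 had 7.43 CPM where the other kidneys of its group had at most 0.570 CPM. Among vehicle livers at 8 h, MS-16 had 3.12 CPM of chr6:128084665-128092972 against 0.625 to 1.14 CPM, and 14.5 CPM of chr6:127592418-127609743 against 3.65 to 5.13 CPM; both intervals rose at both doses at that time.

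The change from vehicle differed between 8 h and 24 h, by the test of the interaction, for 1 of 300 intervals at the low dose, against 0.615% of all targets. At the high dose it differed for 41, 38 lower and 3 higher, against 4.05% and 2.88% of all targets.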

How the results depend on the processing

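No paired analysis was made, because the labels give library numbers only and do not tie libraries of different groups or organs to a rat. Counts of called intervals kept within 1.5 times of the reported count in 203 values and moved further in 52, and no change of a named interval was reversed in sign. At the low dose at 24 h the count of 117 was 63 with library size alone, 43 with each library's interval share as a covariate, and 10 with MS-1. DESeq2 gave 67 between doses at 8 h, 121 at 24 h, 11 and 74 for the interactions of low and high dose, 2 in vehicle over time, 10 and 11 in kidney at 8 h and 24 h, and 1 in heart at 24 h. Library size alone gave 40 between doses at 8 h. The low-dose interaction count was 3 with the covariate and 0 with MS-1. Scaling from the intervals alone gave 26 for the high-dose interaction (6 higher, 20 lower) and 1 in heart at 24 h, where dropping the limit of size also gave 1. With MS-1 the count for the high dose at 24 h was 163. The cause of these moves was not tested. These counts have no share of all targets beside them and are set only against the reported counts.

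As single libraries were left out, counts ranged from 74 to 87 and 79 to 116 at the low dose (8 h and 24 h), 154 to 165 and 202 to 224 at the high dose, 5 to 30 and 29 to 79 between doses, 0 to 3 and 31 to 48 for the interactions of low and high dose, 0 to 0 in vehicle over time, 4 to 10 and 2 to 8 in kidney, and 0 to 0 and 0 to 2 in heart. With each treated group left out, 284 to 293 were higher in liver than in kidney and 285 to 293 than in heart.

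For 31 named values, 459 of 496 recomputed values kept direction and call and 37 lost the call. Apart from single libraries left out, these were chr6:128084665-128092972 at the high dose at 24 h with MS-1 (1.36) and, with the covariate, chr11:3069861-3089860 at the high dose at 24 h (1.31) and, between doses at 24 h, chr1:14513389-14527216 (−4.03), chr16:49167826-49185059 (−2.17) and chr6:128084665-128092972 (1.98). Of the 300 intervals, 258 were kept with a pseudocount of 0.1, 282 with 1, 294 with MS-1, 219 by TPM and 290 with the 200 largest intervals ranked too.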
